A study of Mus musculus with 6 samples.

Results

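Tumor necrosis factor (TNF) receptors and the NF-kappaB genes downstream of them were followed in mouse liver as a set of 10 genes taken by symbol from the count table, out of 40803 gene rows: the receptors Tnfrsf1a and Tnfrsf1b, the subunits Rela, Relb, Nfkb1 and Nfkb2, and the feedback genes Nfkbia, Nfkbiz, Tnfaip3 and Birc3. All 10 were found and all 10 passed the filter on low counts. RNA-seq was available for 6 livers of normally fed C57BL6 mice, 3 that received rAAV8-Scramble and 3 that received rAAV8-Hnf1aos1, each with a library of its own. Per the study's methods, the mice were males of about 6 weeks, received 100 µL of virus through the tail vein and were examined 4 weeks later. Both viruses, of the adeno-associated serotype that enters hepatocytes, carried a short hairpin RNA (shRNA) under a U6 promoter and an EGFP reporter under a CAG promoter. The hairpin was directed against the lncRNA Hnf1aos1 in the rAAV8-Hnf1aos1 group (called knockdown here) and was a scrambled sequence in the control group (called scramble here). No uninjected mice were analysed here, so both groups carry virus.

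As background, TNF acts through TNFR1 (Tnfrsf1a), which carries a death domain and is found on most cells including hepatocytes, and through TNFR2 (Tnfrsf1b), which lacks that domain and is found mainly on immune and endothelial cells. In resting cells IkappaB-alpha (Nfkbia) holds dimers of RelA and p50 in the cytoplasm. Receptor signalling leads to its degradation, and the freed dimers enter the nucleus and induce genes that include Nfkbia itself, the ubiquitin-editing enzyme A20 (Tnfaip3) and the ubiquitin ligase cIAP2 (Birc3). A second, slower branch uses RelB and the p100 precursor of p52 (Nfkb2). In liver the pathway is known for guarding hepatocytes against death during TNF exposure and for taking part in the acute phase response.

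Gene counts summed to between 14704746 and 19462398 per library. Hepatocyte markers dominated as the tissue label states, with summed normalized counts of 1163170 to 1464680 per library over 7 markers, most of it Alb. Of the 7, Fgb, which encodes a fibrinogen chain and is an acute phase gene, was called higher (log2 fold change 1.11, adjusted p = 0.00682 from edgeR's test), and Tat, which encodes tyrosine aminotransferase, was called lower (−0.72, adjusted p = 0.00766). Both calls were lost without scramble replicate 3 (adjusted p = 0.0723 and 0.0523). A normalized count is the raw count divided by the library's size after TMM scaling, relative to the mean of the 6 sizes. Hnf1aos1, the targeted gene, had normalized counts of 512, 491 and 620.3 in the scramble libraries and 278, 258 and 433 in the knockdown libraries. The groups did not overlap, and knockdown replicate 3 kept the most. On the log2 scale the knockdown group differed from the scramble group by −0.74 (standard error 0.195; log2 fold changes are given in this direction throughout), and the quasi-likelihood test of edgeR, adjusted over 16327 genes by Benjamini and Hochberg's method, left it uncalled (adjusted p = 0.0625). It was called with DESeq2, limma voom, no filter on low counts or the replicate block, and without knockdown replicate 3.

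Against this background, the inhibitor Nfkbia was the 1 gene of the 10 that was called (adjusted p under 0.05), and it fell. Its level in the knockdown livers was 60.8% of that in the scramble livers. In contrast, 8 of the 10 genes had a log2 fold change above 0, the largest for the receptor Tnfrsf1a, with a fold of 1.94 that was not called. Of all genes tested, 3.23% were called lower and 3.09% higher, together 6.32%, and the count of 1 in 10 genes is near that background. The median log2 fold change of the 10 genes was 0.16, beside −0.00040 for all genes tested. In 3 of the 10 genes (Tnfrsf1a, Rela and Birc3) every knockdown library lay above every scramble library, beside 15.2% of all genes, and in Nfkbia every one lay below, beside 13.7% (4 of 10 in either direction, beside 28.9%). The number of genes called depended on the scaling. With library sizes taken from the spike-ins, which put the median of all tested genes at a log2 fold change of 0.20, 5 of the 10 were called higher (Tnfrsf1a, Tnfrsf1b, Rela, Nfkb2 and Birc3) and 1 lower (Nfkbia), where 18.6% of all genes were called higher and 2.23% lower (3030 and 364 genes, against 505 and 527 with TMM).

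**Figure D1:**
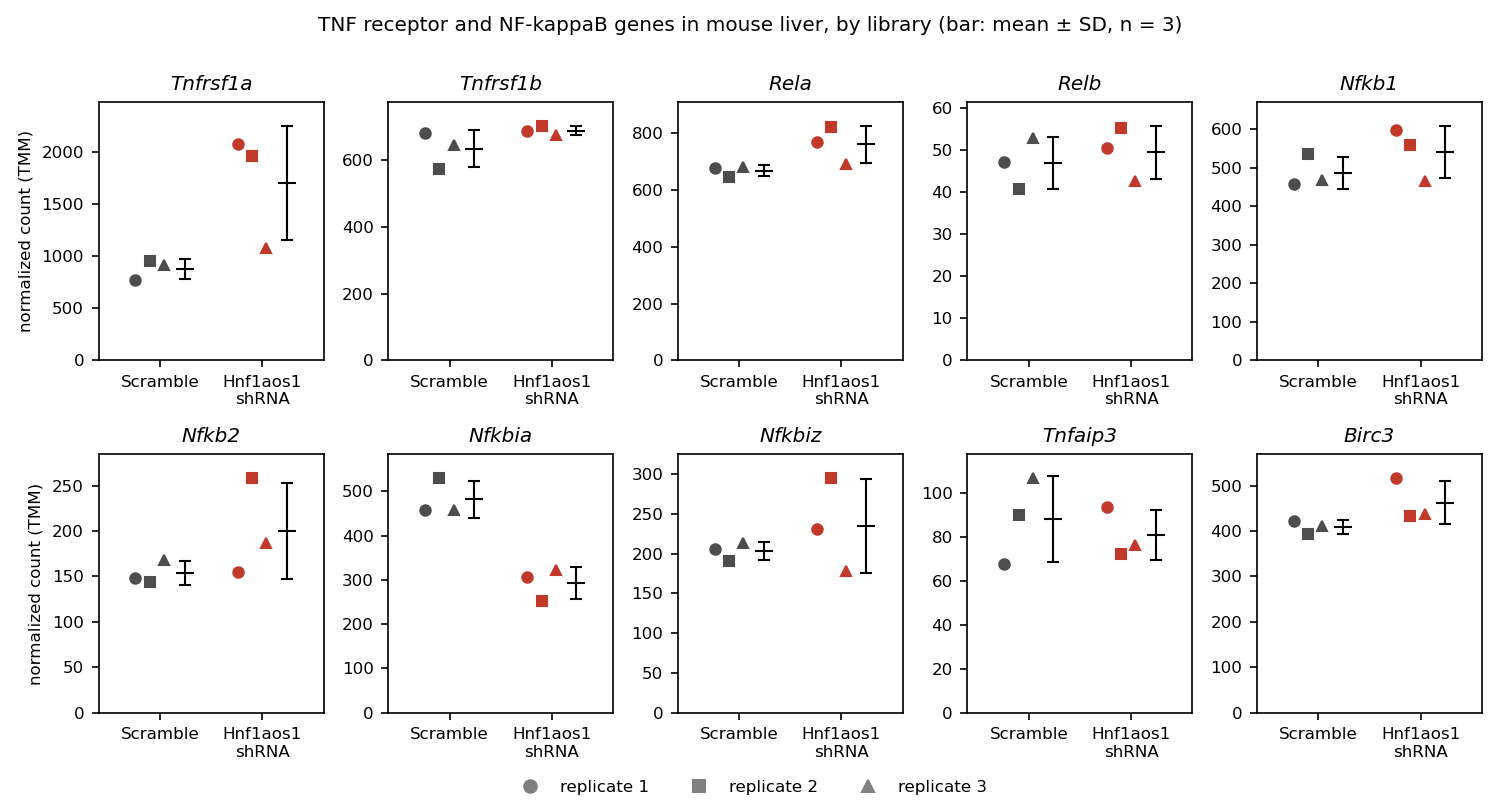
Normalized counts (linear axes from 0) of the 10 genes in each library, with scramble in grey, knockdown in red, the symbol giving the replicate number and the bar the mean ± SD of 3 libraries. Nfkbia shows 3 knockdown libraries between 252 and 322, all under the scramble libraries at 458 to 530.2, while Tnfrsf1a shows knockdown replicates 1 and 2 at 2075 and 1965 and knockdown replicate 3 at 1079.

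Of the receptors, Tnfrsf1a spans 125349362 to 125362484 of chromosome 6 (+ strand; positions are on GRCm38). It had 771, 952 and 912 normalized counts in scramble replicates 1, 2 and 3, and 2075, 1965 and 1079 in knockdown replicates 1, 2 and 3. All 3 knockdown values were higher than the highest scramble value, but the third was so by a small margin, and the coefficient of variation was 32.0% in the knockdown group against 10.8% in the scramble group. The group means were 878 ± 95.2 and 1706 ± 546 (SD, n = 3), and the log2 fold change was 0.96 (95% interval 0.34 to 1.58, adjusted p = 0.0863 from edgeR's test). The call turned on knockdown replicate 3: without it the log2 fold change was 1.21 (adjusted p = 1.3e-05 from edgeR's test), and without any other library the adjusted p was 0.186 to 0.246. DESeq2 called the gene higher with all 6 libraries (adjusted p = 4.3e-05), where it called 3.64% of all genes higher and 3.47% lower. Limma voom did so as well (adjusted p = 0.0455), with 2.66% and 2.85% of all genes.

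Tnfrsf1b (chromosome 4, 145213463 to 145246870, − strand) had 574 to 681 normalized counts in the scramble libraries and 674 to 702 in the knockdown libraries. The ranges overlapped. The log2 fold change was 0.12, with a 95% interval of −0.086 to 0.32 (adjusted p = 0.476 from edgeR's test). It was 0.047 without scramble replicate 2, and 0.32 with the spike-in scaling, where the gene was called (adjusted p = 0.0297). Within each library, TNFR2 transcripts per TNFR1 transcript (ratio of deposited TPM, a unit that allows for gene length) stood at 0.387, 0.264 and 0.310 in the scramble livers and 0.145, 0.156 and 0.273 in the knockdown livers. The log2 difference of that ratio was −0.78 (exact two-sided permutation test, p = 0.2), and knockdown replicate 3 lay within the scramble range.

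Markers of other liver cells were counted in the same libraries. Of 8 Kupffer cell and macrophage markers, 8 had a log2 fold change above 0 with a median of 0.43. Of the 8, 2 were called higher (Clec4f and Adgre1), beside 3.09% of all genes. In 7 of the 8 every knockdown library lay above every scramble library, beside 15.2% of all genes. An unadjusted p under 0.05 from edgeR's test was reached by 7, beside 23.4% of all genes. Summed normalized counts of the 8 markers were 2913 to 3532 in the scramble and 3714 to 4776 in the knockdown libraries. With 1 library left out, Clec4f was still called without scramble replicate 1 or knockdown replicate 3 (adjusted p up to 0.174 otherwise), and Adgre1 without knockdown replicate 3 (adjusted p up to 0.208 otherwise). Adgre1 was also not called by DESeq2 (adjusted p = 0.0782) or limma voom (adjusted p = 0.0612). Nor did edgeR call it with DESeq2's size factors (adjusted p = 0.0514) or with the replicate block (adjusted p = 0.0669). The spike-in scaling and the fit with no filter on low counts did call Adgre1.

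Of 8 monocyte and neutrophil markers, 4 were tested and Lyz2 was called higher, the list summing to 654 to 765 against 901 to 1069. Most of each sum was Lyz2 itself, with 584 to 695 normalized counts in the scramble and 817 to 908 in the knockdown libraries. In the 3 other markers tested the groups overlapped, none was called and 1 lay below 0, so the sums do not show a rise across the list. The Lyz2 call was lost with any of scramble replicate 2, scramble replicate 3 and knockdown replicate 2 left out (adjusted p = 0.0779, 0.128 and 0.0875). Among the markers too low to be tested, the neutrophil genes S100a8 and S100a9 had raw counts of 0 to 2 in the scramble and 4 to 12 in the knockdown libraries, without overlap, and Ly6g and Mpo had 0 in every library. Summed lymphocyte markers were 122 to 159 in the scramble and 147 to 159 in the knockdown libraries, and 0 of 7 tested were called by edgeR, with 1 at an unadjusted p under 0.05, which 23.4% of all genes reached.

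Of the 6 sinusoidal endothelial markers edgeR called 0, with 0 at an unadjusted p under 0.05, and 5 lay below 0 (median −0.031). All 5 stellate markers lay below 0 (median −0.23), with 0 called by edgeR and 1 under an unadjusted p of 0.05. The cholangiocyte list had 0 of 4 called and 0 at an unadjusted p under 0.05. Its sums of 578 to 688 and 833 to 2542 were set apart by Spp1, which is not particular to bile ducts and reached 2161 in knockdown replicate 1, and without Spp1 they overlapped (296 to 369 and 321 to 490.3). The part that these cells have in the values of the 10 genes was not tested. In whole liver, a changed number of cells and a changed amount of RNA per cell cannot be told apart.

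Among the subunits, Rela encodes the main transactivating subunit of the pathway (chromosome 19, 5637483 to 5648130, + strand). Rela had 677, 645 and 679.7 normalized counts in scramble replicates 1, 2 and 3 and 769.6, 822 and 691 in knockdown replicates 1, 2 and 3. The groups did not overlap, although the gap between the highest scramble and the lowest knockdown library was small. The log2 fold change was 0.19 (95% interval −0.015 to 0.39, adjusted p = 0.249 from edgeR's test).

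Nfkb1, which encodes p105, the precursor of p50 (chromosome 3, 135584655 to 135691547, − strand), had 458 to 535 normalized counts in the scramble and 465 to 597 in the knockdown libraries. Its log2 fold change was 0.15 (95% interval −0.10 to 0.40, adjusted p = 0.460 from edgeR's test), and it was 0.065 without knockdown replicate 1 and 0.25 without knockdown replicate 3. Nfkb2, of the slower branch (chromosome 19, 46304320 to 46312385, + strand), had 149, 144 and 168 normalized counts in scramble replicates 1, 2 and 3 and 154, 258 and 187 in knockdown replicates 1, 2 and 3. The groups overlapped through knockdown replicate 1, and the high value of knockdown replicate 2 set much of the mean: the log2 fold change was 0.38 (95% interval −0.020 to 0.78, adjusted p = 0.236 from edgeR's test) and 0.15 without that library. On the opposite strand, exons of AC114539.1, which was not matched in the count table, cover 11.6% of its exon bases, and exons of Psd, with 21 to 49 counts per library, cover 6.52%. Relb, the partner of p52 (chromosome 7, 19606217 to 19629438, − strand), was the lowest of the 10 genes, with raw counts of 37 to 48 in the scramble and 47 to 58 in the knockdown libraries. At that depth its log2 fold change of 0.075 had a 95% interval of −0.42 to 0.57 (adjusted p = 0.877 from edgeR's test), so a rise of up to 1.48-fold lies within the interval.

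Nfkbia lies on the − strand of chromosome 12, from 55489410 to 55492647. IkappaB-alpha is both the gatekeeper of RelA and p50 and a product of a gene that they induce. Normalized counts were 458, 530.2 and 459 in scramble replicates 1, 2 and 3. In knockdown replicates 1, 2 and 3 they were 305, 252 and 322. All 3 knockdown livers were low, knockdown replicate 3 included, and the lowest scramble library was well above the highest knockdown library. The group means were 482 ± 41.6 and 293 ± 36.8 (SD, n = 3), and the log2 fold change was −0.72 (standard error 0.119, 95% interval −0.98 to −0.46, adjusted p = 0.00867 from edgeR's test). The gene was called in each of the 6 other fits to all libraries (adjusted p of 1.17e-06 to 0.0240), the spike-in scaling included, where the log2 fold change was −0.52 (adjusted p = 0.0184 from edgeR's test). It was called in 5 of the 6 fits that left out 1 library, and the exception was the fit without scramble replicate 3 (log2 fold change −0.76, adjusted p = 0.0552 from edgeR's test).

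**Figure D2:**
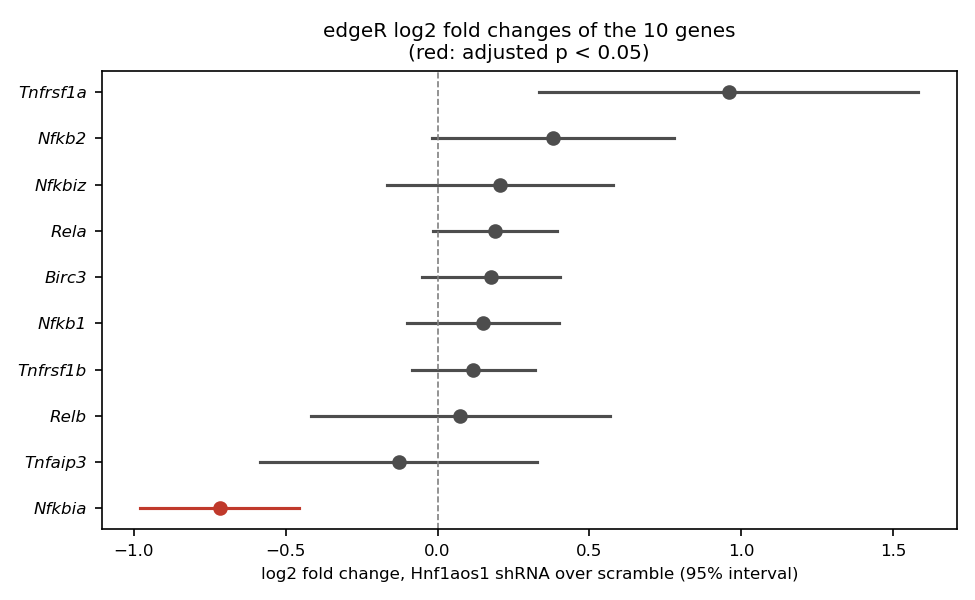
Log2 fold changes (horizontal axis, knockdown over scramble) of the 10 genes from edgeR with 95% intervals, ordered by value, with the gene called at an adjusted p under 0.05 in red. Nfkbia at −0.72 is the 1 gene called, and the interval of Tnfrsf1a runs from 0.34 to 1.58 without passing the adjustment.

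None of the other 3 feedback genes was called by edgeR, and 0 of them had an unadjusted p under 0.05; Birc3 was called higher with the spike-in scaling. A20, encoded by Tnfaip3 (chromosome 10, 19000910 to 19015657, − strand), removes activating ubiquitin chains and ends signalling. Tnfaip3 had 67.7, 90.0 and 107 normalized counts in scramble replicates 1, 2 and 3 and 93.5, 72.2 and 76.1 in knockdown replicates 1, 2 and 3. The groups overlapped widely. Its log2 fold change was −0.13 (95% interval −0.58 to 0.33, adjusted p = 0.761 from edgeR's test), and the sign turned with the spike-in scaling (0.072) and without scramble replicate 3 (0.027).

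Birc3 encodes cIAP2, a ubiquitin ligase of the TNF receptor complex (chromosome 9, 7848699 to 7873186, − strand). It had 423, 393 and 410.2 normalized counts in scramble replicates 1, 2 and 3 and 517, 432 and 437 in knockdown replicates 1, 2 and 3. Every knockdown library was higher, by little in 2 of them, and the log2 fold change was 0.18 (95% interval −0.050 to 0.40, adjusted p = 0.330 from edgeR's test) and 0.081 without knockdown replicate 1. Nfkbiz encodes IkappaB-zeta, a nuclear relative of IkappaB-alpha that takes part in inducing secondary NF-kappaB targets (chromosome 16, 55811375 to 55838899, − strand). It had 206, 191 and 213 normalized counts in scramble replicates 1, 2 and 3 and 231, 296 and 178 in knockdown replicates 1, 2 and 3. Knockdown replicate 3 was the lowest of the 6 libraries and knockdown replicate 2 the highest. The log2 fold change was 0.21 (95% interval −0.16 to 0.58, adjusted p = 0.496 from edgeR's test), and it was 0.0098 without knockdown replicate 2 and 0.37 without knockdown replicate 3.

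The libraries of the knockdown group differed in how far they stood from the scramble mean. Knockdown replicate 3 was the closest of the 3 in 6 of the 10 genes, Nfkbia among them, replicate 1 in 3 and replicate 2 in 1. The same count was not made over all genes, so whether it is particular to these 10 is not known. Over all genes, too, leaving out knockdown replicate 3 raised the number called, from 1032 to 1881. A relation to the Hnf1aos1 left in each library was not tested.

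Promoter windows from RefSeq on GRCm38.p6 were used for 7 of the 10 genes, each from 250 bases before to 50 bases after an annotated start. Relb, Nfkb1 and Nfkbiz were not searched. The windows were searched on both strands for the 10-base NF-kappaB consensus. A match was found for 3 of the 7 genes (Nfkbia, Tnfaip3 and Nfkb2) and for 5.14% of the 27025 genes with a window. In the windows printed here capitals mark the matches, and Tnfrsf1a, the gene with the largest positive log2 fold change, is shown beside them as a window without one. The Nfkbia window, chr12:55492598-55492897 on the − strand, has 1 match at position −29 from the start site. The first Tnfaip3 window, chr10:19015361-19015660 on the − strand, has matches at −125 and −12. The first Nfkb2 window, chr19:46304487-46304786 on the + strand, has them at −39, −38 and −11, the first and second overlapping. Other windows of these genes were searched but are not printed. The second Tnfaip3 window has 0 matches. The second Nfkb2 window has matches at −236 and 11. The third Nfkb2 window overlaps the second and has 1 match, at −225, which is the same site as the match at 11. The Tnfrsf1a window is chr6:125349473-125349772 on the + strand.
Nfkbia: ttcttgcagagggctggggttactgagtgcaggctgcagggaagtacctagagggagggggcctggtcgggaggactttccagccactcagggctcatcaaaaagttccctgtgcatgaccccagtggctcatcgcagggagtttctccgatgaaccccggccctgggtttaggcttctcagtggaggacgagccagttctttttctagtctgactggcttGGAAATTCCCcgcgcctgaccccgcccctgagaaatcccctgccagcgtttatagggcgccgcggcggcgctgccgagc
Tnfaip3: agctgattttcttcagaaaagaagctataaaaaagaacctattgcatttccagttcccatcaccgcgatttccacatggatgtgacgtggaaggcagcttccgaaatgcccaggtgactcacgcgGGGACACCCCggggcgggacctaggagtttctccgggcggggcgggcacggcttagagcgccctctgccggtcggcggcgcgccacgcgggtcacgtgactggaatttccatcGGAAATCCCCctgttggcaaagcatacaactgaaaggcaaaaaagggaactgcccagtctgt
Nfkb2: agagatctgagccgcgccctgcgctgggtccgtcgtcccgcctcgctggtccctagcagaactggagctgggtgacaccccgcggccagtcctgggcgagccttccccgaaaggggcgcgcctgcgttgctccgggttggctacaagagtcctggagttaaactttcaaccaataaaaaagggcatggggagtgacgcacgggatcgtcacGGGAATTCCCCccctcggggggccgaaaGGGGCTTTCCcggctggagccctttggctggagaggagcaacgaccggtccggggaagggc
Tnfrsf1a: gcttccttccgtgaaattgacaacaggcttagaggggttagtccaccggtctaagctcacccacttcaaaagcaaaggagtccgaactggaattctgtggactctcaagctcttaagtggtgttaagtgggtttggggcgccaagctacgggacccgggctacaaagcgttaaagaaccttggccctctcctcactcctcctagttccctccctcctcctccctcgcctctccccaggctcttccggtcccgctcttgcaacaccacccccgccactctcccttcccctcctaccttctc
The 3 genes with a match had log2 fold changes of −0.72, −0.13 and 0.38, so they differed in sign. The other patterns searched, also on both strands, were TTC and GAA with 3 bases of any kind between them, the form of a STAT site, which reads the same on either strand, and GAAA and GAAA with 2 bases between them, a form found in interferon-stimulated elements. The first occurred in windows of Tnfrsf1a, Tnfrsf1b and Nfkb2 and in 9.55% of all genes. The second occurred in the window of Tnfrsf1b and in 3.99% of all genes. These are matches of letters and not sites shown to be bound.

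Levels between genes were compared per length on the deposited TPM values. In the scramble livers Tnfrsf1a was highest with 53.1 ± 6.10 TPM, followed by Nfkbia with 39.8 ± 2.79, Rela with 25.8 ± 1.37, Tnfrsf1b with 16.8 ± 1.66, Nfkb1 with 14.9 ± 1.08, Birc3 with 11.7 ± 0.607 and Nfkbiz with 6.82 ± 0.561 (SD, n = 3). Tnfaip3, Nfkb2 and Relb stood at 3.01 TPM or less in every scramble library. Tnfrsf1b and Nfkb1 overlapped in range, as did Tnfaip3 and Nfkb2, and the other neighbours in this order did not. In the knockdown livers Nfkbia, with 24.8, 19.3 and 24.9 TPM, ranked under Rela, with 29.3, 29.5 and 25.0 TPM, and the highest Nfkbia library stood just under the lowest Rela library. Tnfrsf1b and Nfkb1, Nfkb1 and Birc3, and Nfkb2 and Tnfaip3 overlapped in the knockdown livers.

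The same pair was compared within single livers. Nfkbia per Rela was 1.44, 1.75 and 1.44 in scramble replicates 1, 2 and 3 and 0.846, 0.654 and 0.996 in knockdown replicates 1, 2 and 3. The inhibitor transcript exceeded the Rela transcript in every scramble liver and in no knockdown liver, although knockdown replicate 3, at 0.996, was all but equal. On which side of 1 a ratio lies depends on the gene lengths behind the TPM values, which the sources used here do not give. The ratio in the knockdown group was 0.533 times that in the scramble group, a log2 difference of −0.91 (exact two-sided permutation test, p = 0.1, which is the lowest value possible for 3 against 3, and 0.175 after adjustment over 7 ratios). Leaving out any 1 library gave −1.05 to −0.74. A ratio within a library does not depend on how libraries are scaled to each other.

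The ratios of the other feedback genes to Nfkbia were higher in the knockdown livers. Birc3 per Nfkbia was 0.257 to 0.320 in the scramble and 0.469 to 0.595 in the knockdown livers, a log2 difference of 0.89. Nfkbiz per Nfkbia went from 0.146 to 0.189 up to 0.225 to 0.476, a log2 difference of 0.90. For Tnfaip3 per Nfkbia the ranges were 0.0489 to 0.0769 and 0.0780 to 0.101, a log2 difference of 0.61 with the groups all but touching. Each of these had an exact two-sided permutation p of 0.1 (0.175 adjusted). All 4 ratios whose groups did not overlap contain Nfkbia, so they are not separate observations. The remaining ratios overlapped. Nfkb2 per Nfkb1, which sets the slower branch against the fast one, differed by 0.20 on the log2 scale (exact two-sided permutation test, p = 0.5), and Relb per Rela by −0.11 (p = 0.4, same exact test).

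**Figure D3:**
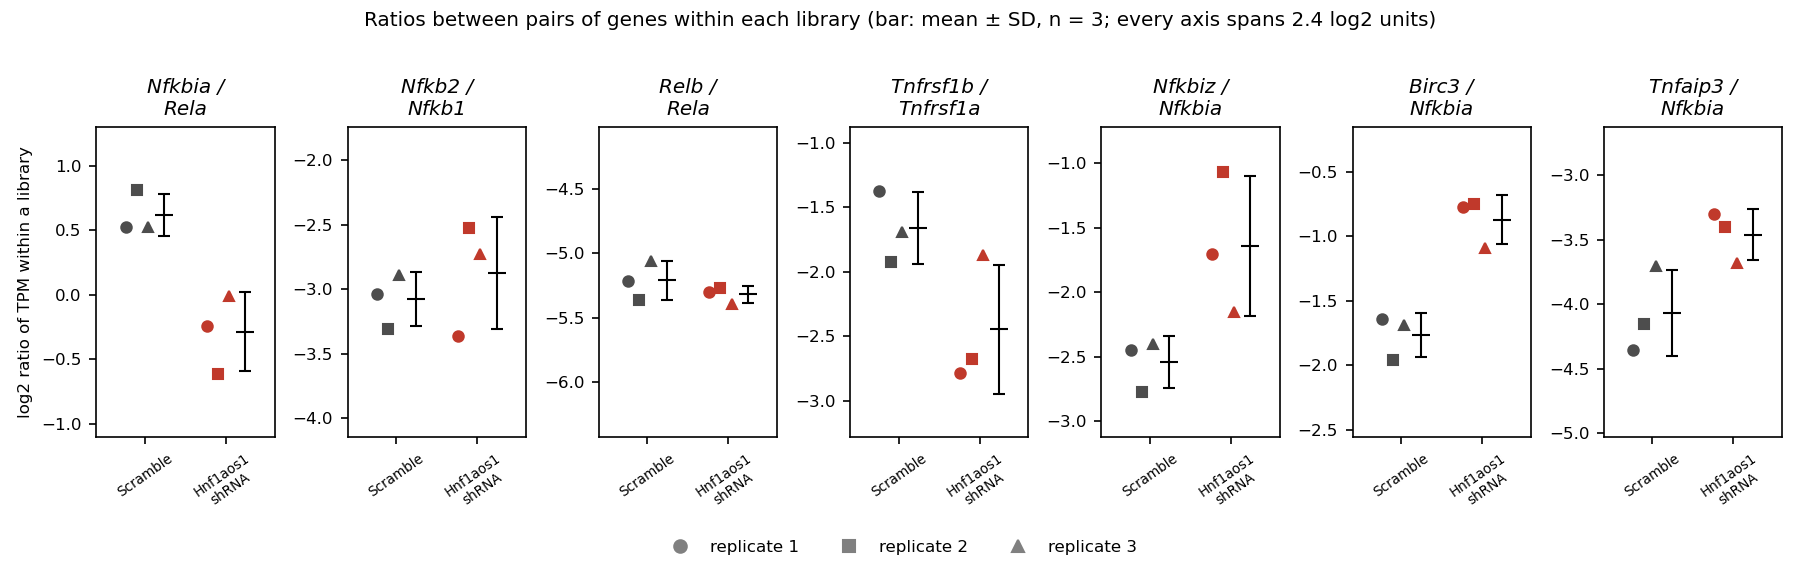
Log2 ratios of TPM between 2 genes within each library (vertical axes, each spanning the same number of log2 units), with scramble in grey, knockdown in red and bars giving mean ± SD of 3 libraries. Nfkbia per Rela is above 0 in all scramble livers and below 0 in all knockdown livers, only just so in knockdown replicate 3. The groups overlap for Nfkb2 per Nfkb1, Relb per Rela and Tnfrsf1b per Tnfrsf1a.

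Beyond the 10 genes, 77 other genes of the pathway were listed by role and 65 of them passed the filter. Of the 65, 3 were called higher and 0 lower, which is 3 of 65 beside the 3.09% of all genes called higher, and 23 had an unadjusted p under 0.05, beside 23.4% of all genes. Their median log2 fold change was 0.23, and 49 lay above 0. All 3 calls depended on single libraries, and without scramble replicate 3 the count was 0 (14 at an unadjusted p under 0.05), against 15 without knockdown replicate 3. The calls over all genes moved the same way, from 1032 with all libraries to 103 and 1881 in these fits. The pathway count was 1 without scramble replicate 1, without scramble replicate 2 or without knockdown replicate 2, where 630, 391 and 323 genes in all were called. DESeq2 called 4 higher and 1 lower, beside 3.64% and 3.47% of all genes. The spike-in scaling called 28 higher and 0 lower, beside 18.6% and 2.23% of all genes.

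Of the ligands, 4 of 9 were tested, and 2 of the 4 had an unadjusted p under 0.05 from edgeR's test, beside 23.4% of all genes. Tnfsf10, which encodes the death ligand TRAIL, rose from 182 ± 3.97 to 397 ± 136 normalized counts (SD, n = 3), with 553, 339 and 299.8 in knockdown replicates 1, 2 and 3. Its log2 fold change was 1.12 (95% interval 0.63 to 1.62, adjusted p = 0.0254 from edgeR's test). The call was lost without any 1 of the scramble libraries, with adjusted p of 0.0744, 0.103 and 0.134 without scramble replicates 1, 2 and 3. The lowest value among the ligands was that of Tnfsf12, which encodes TWEAK, with a log2 fold change of 0.36 (adjusted p = 0.414 from edgeR's test).

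All 8 of the other TNF family receptors tested had a log2 fold change above 0, with a median of 0.43. In 5 of the 8 every knockdown library lay above every scramble library, beside 15.2% of all genes. An unadjusted p under 0.05 from edgeR's test was reached by 6 of the 8, beside 23.4% of all genes. Tnfrsf12a, which encodes Fn14, the receptor of TWEAK, was the 1 that was called. It rose from 30.9 ± 5.45 to 73.2 ± 28.3 normalized counts (SD, n = 3), a log2 fold change of 1.24 (95% interval 0.55 to 1.93, adjusted p = 0.0419 from edgeR's test). Values of 98.2, 78.9 and 42.6 in knockdown replicates 1, 2 and 3 put replicate 3 closest to the scramble libraries. The call held without that library (adjusted p = 0.00174 from edgeR's test), and the adjusted p was 0.103 to 0.157 without any other single library and 0.0954 with limma voom. Fas, the death receptor, was the lowest of the 8 with 0.15 (adjusted p = 0.373 from edgeR's test).

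Of the 13 adaptors and ubiquitin ligases and the 10 kinases, edgeR called 0, with 4 and 2 at an unadjusted p under 0.05 (23.4% of all genes). Among the former, Rnf31, the catalytic subunit of the linear ubiquitin ligase, was highest with a log2 fold change of 0.39 (adjusted p = 0.0696) and the adaptor Traf1 lowest with −0.57 (adjusted p = 0.386). Among the kinases and their partners, Ikbke was highest with 0.57 (adjusted p = 0.259). Ikbkg, the NEMO scaffold of the kinase complex that marks IkappaB proteins for degradation, was lowest with −0.38 (adjusted p = 0.0604), with 2340 to 2859 normalized counts in the scramble and 1761 to 2072 in the knockdown libraries. Ikbkg was called lower by DESeq2 (adjusted p = 0.0425) and by edgeR with no filter on low counts (adjusted p = 0.00918). Rnf31 was called higher by edgeR with no filter (adjusted p = 0.0189) and with the spike-in scaling (adjusted p = 0.0064). Ikbke had 339 to 433 normalized counts in the scramble libraries and 701, 709 and 368 in knockdown replicates 1, 2 and 3. Without knockdown replicate 3 Ikbke was called higher (log2 fold change 0.82, adjusted p = 0.000657 from edgeR's test).

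Of the 5 other REL and IkappaB genes, edgeR called 0, with 1 at an unadjusted p under 0.05. Nfkbib, which encodes IkappaB-beta, a relative of IkappaB-alpha, had the opposite sign to Nfkbia. Its log2 fold change was 0.47 (adjusted p = 0.0905 from edgeR's test), with 157 to 214 normalized counts in the scramble and 223 to 295 in the knockdown libraries. Rel, which encodes c-Rel, was the lowest of this group with −0.23 (adjusted p = 0.270 from edgeR's test).

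Of the 10 other inhibitors tested, 5 had an unadjusted p under 0.05 from edgeR's test, beside 23.4% of all genes, and Otulin was called. It encodes the deubiquitinase that removes linear ubiquitin chains. It rose from 333 ± 28.5 to 479.5 ± 50.1 normalized counts (SD, n = 3), a log2 fold change of 0.53 (95% interval 0.28 to 0.77, adjusted p = 0.0234 from edgeR's test). The adjusted p was 0.0564 without scramble replicate 1, 0.131 without scramble replicate 3 and 0.0934 without knockdown replicate 2, so the call was lost in these. Otud7b, another deubiquitinase, was lowest with −0.15 (adjusted p = 0.304 from edgeR's test).

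Of 20 classical NF-kappaB target genes, 15 were tested and edgeR called 0 (3 at an unadjusted p under 0.05, beside 23.4% of all genes). Their median log2 fold change was 0.021, with 8 above 0 and 7 below. Lcn2, which encodes the siderophore-binding lipocalin of the acute phase, had the highest value, 4.59 (95% interval 0.018 to 9.15, adjusted p = 0.212 from edgeR's test). Lcn2 stood at 15.4, 31.8 and 58.3 normalized counts in scramble replicates 1, 2 and 3 and 433, 2035 and 53.4 in knockdown replicates 1, 2 and 3, so that knockdown replicate 3 lay within the scramble range. Without knockdown replicate 2 the value was 2.80. DESeq2 called the gene (adjusted p = 0.00886). Gadd45b, a stress-inducible gene, had the lowest value, −1.40 (adjusted p = 0.0845 from edgeR's test), with 12.1 to 26.7 normalized counts in the scramble and 4.53 to 10.5 in the knockdown libraries. With no filter on low counts Gadd45b was called lower (adjusted p = 0.0441 from edgeR's test).

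**Figure D4:**
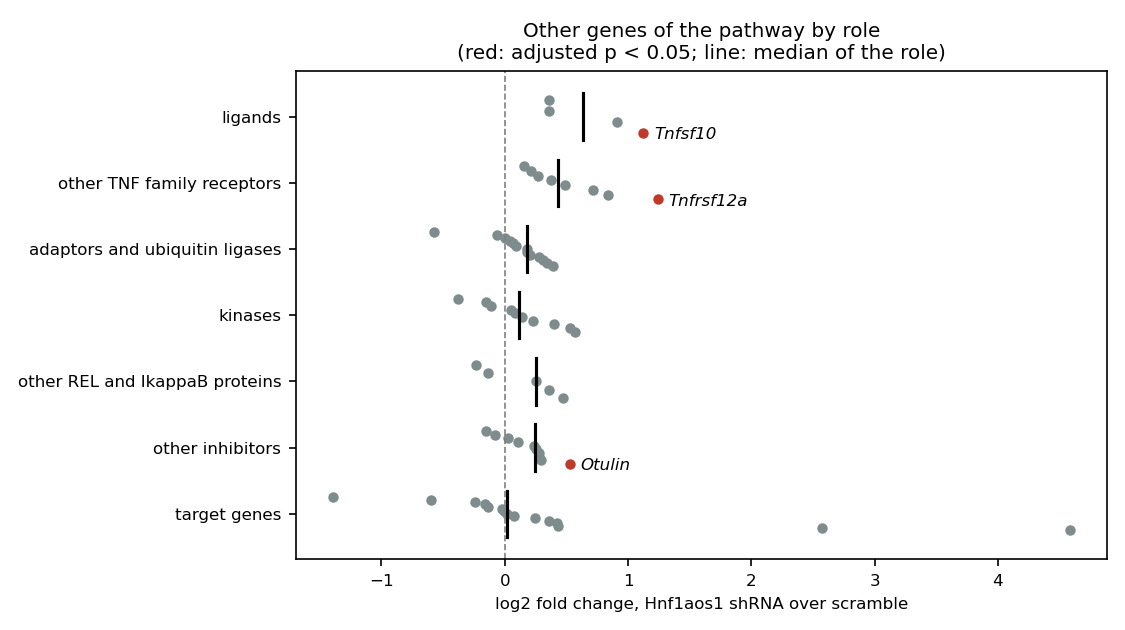
Log2 fold changes (horizontal axis, knockdown over scramble, edgeR) of the 65 tested pathway genes outside the set of 10, 1 point per gene in rows by role, with genes called at an adjusted p under 0.05 in red and a line at the median of each role. Tnfsf10, Tnfrsf12a and Otulin are the genes called, all 8 receptors lie right of 0, and the target genes have a median of 0.021 with Lcn2 at 4.59 and Gadd45b at −1.40.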

How the data were processed

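RNA-seq of 6 mouse livers was analysed, 3 per group, grouped by the sample titles. According to the methods and labels, the authors trimmed the reads with Trimmomatic, aligned them with STAR and used featureCounts to count, for each gene, exonic reads that mapped uniquely. The methods name GRCm38 and the labels GRCm39 as the build, the strand setting of the counting is not given in the sources used here, and the methods describe poly(A) selection where the labels describe removal of ribosomal RNA. The deposited raw counts are whole numbers without normalization. The deposited TPM values sum to the same total in every library, and how gene lengths were set is not given in the sources used here. The authors' normalized counts and the table of their comparison (log2 fold changes and p-values from DESeq2) were not used.

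The 92 spike-in rows (1.19 to 1.52% of counts) were left out. With edgeR 4.0.16 in R 4.3.3, genes were filtered by filterByExpr, scaled by TMM and tested with robust quasi-likelihood fits on group alone, p-values being adjusted over 16327 genes by Benjamini and Hochberg's method. Standard errors are the log2 fold change divided by the square root of its F statistic, and intervals are 95% intervals from the t distribution with the degrees of freedom of the fit. Exact permutation tests were two-sided. Alternatives were DESeq2 1.42.0, limma 3.58.1 (voom), DESeq2's size factors in edgeR, library sizes from the spike-ins, no filter on low counts, the replicate number as a block and each library left out in turn. The scripts were tested on simulated data. Between libraries of the same group the chi-square statistic was 7.73 to 31.9 for each gene, where repeat reads of a library give about 1, so none was treated as a duplicate. Positions are GENCODE M21 on GRCm38 by symbol, and 37492 of 40803 symbols of the table matched RefSeq on GRCm38.

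The 10 genes and all lists were chosen with earlier results of these data known. Named genes were Hnf1aos1, the 10 genes, each pathway gene called and the highest and lowest of each role; Alb, Fgb, Tat, Clec4f, Adgre1, Lyz2, S100a8, S100a9, Ly6g, Mpo, Spp1, Psd and AC114539.1, the cholangiocyte sum without Spp1, and the counts of untested genes, were named after their values were seen. Counting precision is limited for genes under 100 counts such as Relb and Tnfaip3, and p-values measure the spread between 3 mice per group.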

Additional observations from a re-analysis of the deposited data

How the results depend on the processing

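Nfkbia kept its direction in all 12 alternative fits and its call in 11, and the number of the 10 genes called was 2 with DESeq2 (Nfkbia and Tnfrsf1a), 2 with limma voom (the same genes) and 6 with library sizes from the spike-ins, against 1. With single libraries left out it ran from 0 to 2. The pathway genes called numbered 5 with DESeq2, 28 with the spike-ins and 13 with no filter on low counts, against 3, and 0 to 15 with 1 library left out. Of these, 1 was lower with DESeq2 (Ikbkg), 0 with the spike-ins and 2 with no filter (Ikbkg and Gadd45b). Over all genes the calls went from 1032 to 3394 with the spike-ins and 1902 with no filter, and ran from 103 without scramble replicate 3 to 1881 without knockdown replicate 3. The fit with no filter also tested genes that the filter removes. Its counts of 13 and 1902 are therefore out of larger totals, which are not given here, and cannot be set directly against 3 and 1032. Directions reversed for Relb when scramble replicate 2 (−0.022) or knockdown replicate 2 (−0.0074) was left out (−0.022 to 0.18 over all 6 such fits), and for Tnfaip3 with the spike-ins (0.072) and without scramble replicate 3 (0.027; −0.28 to 0.027 with each library left out), all uncalled. The cause of these differences was not tested. All 7 ratios kept their direction with TMM-scaled counts and with each library left out (Nfkb2 per Nfkb1 0.031 to 0.45, Tnfrsf1b per Tnfrsf1a −1.07 to −0.61).

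The replicate numbers did not pair the libraries: deviations from the group means correlated at −0.0226, 0.0231 and 0.00321 for replicates 1, 2 and 3, and not every library correlated best with its own number. With the replicate block 1 of the 10 genes was called (Nfkbia, adjusted p = 0.0240 from edgeR's test), 2 pathway genes and 878 genes in all, and apart from Hnf1aos1 (−0.77, adjusted p = 0.0138) and Tnfrsf12a (adjusted p = 0.0763) it changed no call of the 10 genes or of the named pathway genes. Depth limits Relb, with 37 to 58 counts per library.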

Other observations

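Several ligands and targets of the pathway had too few counts to pass the filter and were not tested by edgeR after it. Counts this low limit what could be detected in them. Tnf itself, the ligand of both receptors, had raw counts of 1, 1 and 7 in scramble replicates 1, 2 and 3 and 9, 15 and 2 in knockdown replicates 1, 2 and 3. Ltb, which encodes lymphotoxin-beta, had 2 to 11 counts per scramble library and 3 to 14 per knockdown library. Il6 had 0 to 2 counts per library, Lta 0 to 1, and Cxcl2, a neutrophil-attracting chemokine, 0 to 5. In all, 12 of the 77 pathway genes did not pass the filter.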
